A study of Arabidopsis thaliana with 38 samples.

Results

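The genes described here form the module that starts vascular tissue in the Arabidopsis thaliana embryo: the transcription factors TMO5 (AT3G25710), T5L1 (AT1G68810) and LHW (AT2G27230), the cytokinin-releasing enzymes LOG3 (AT2G37210) and LOG4 (AT3G53450), the inhibitor AHP6 (AT1G80100, HP6 in RefSeq) and the receptor WOL (AT2G01830). They were chosen by name, and all 7 were among the 27826 loci measured on 38 one-colour arrays of 11 groups. The RNA came from nuclei of hand-pollinated embryos that were captured with INTACT, which tags the nuclear envelope in a chosen cell type with a pair of transgenes. All groups carried this tagging system, and plants were grown at 22 °C in long days. No other genotype or treatment is given.

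At 72 h after pollination (16-cell stage), 3 arrays were made from the inner lower tier (ILT_16C), which holds the precursors of vascular and ground tissue, and 3 from the whole embryo (EMB_16C). The 81 h stage, labelled EG, has 4 arrays of vascular nuclei (VSC_EG), 4 of ground tissue (GSC_EG), 3 of the suspensor, the stalk of the embryo (SUS_EG), and 4 of whole embryos (EMB_EG). The 100 h stage, labelled LG, has 4 arrays of vascular nuclei (VSC_LG), 3 of ground tissue (GSC_LG), 3 of suspensor (SUS_LG), 3 of nuclei labelled QC (QC_LG) and 4 of whole embryos (EMB_LG). The labels do not name the promoter that marked each cell type, and each replicate was a pool per the series design. The p-values therefore measure the spread between pools. In such samples fewer cells of a type and less RNA per cell cannot be told apart.

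TMO5 and its close relative T5L1 are basic helix-loop-helix factors that pair with LHW, another factor of that family. The pairs drive the divisions that widen the young vascular bundle and switch on LOG3 and LOG4, enzymes that release active cytokinin from its nucleotide form. WOL (also CRE1 or AHK4) is a histidine kinase receptor for cytokinin that vascular divisions need, and AHP6 is a phosphotransfer-like protein without the phosphorylated histidine that dampens cytokinin signalling. TMO5 was found as a target of MONOPTEROS (MP), an auxin response factor. The comparisons ask in which nuclei, and at which stage, each step of this module was high.

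Labels were checked against marker genes of each cell type. None of the 4 vascular markers (MP, ATHB-8, SHR and TMO6) differed between vascular and whole-embryo nuclei by limma at either stage, and MP was 1.43 log2 units lower in VSC_EG (adjusted p = 0.178) and 1.30 lower in VSC_LG (adjusted p = 0.359). The mean log2 level of the vascular list was 3.78 to 4.48 in VSC_LG, 3.99 to 4.93 in GSC_LG and 3.77 to 4.61 in EMB_LG. The other 3 markers in VSC_LG minus EMB_LG were SHR at 0.52, TMO6 at 0.41 and ATHB-8 at 0.06, for a list median of 0.24, so these 4 genes did not separate VSC_LG from the whole embryo. In ground tissue nuclei at 100 h, SCR stood 1.68 above the whole embryo (adjusted p = 0.0854) and JKD 1.13 above it, both with no overlap. NUC went the other way, at -0.57, also with no overlap, and MGP was at 0.19. At 81 h SCR, JKD and NUC were at -0.34, -0.39 and -0.40 in GSC_EG minus EMB_EG and MGP at 0.014. WOX5, which marks the quiescent centre, stood 1.13 above the whole embryo in QC_LG (adjusted p = 0.153), whereas PLT1 and PLT2 of the same list were at -0.68 and -0.94. None of these markers was called. The 3 QC_LG arrays stood apart, with the lowest mean correlation to their own group of all 38 arrays (0.694, 0.635 and 0.701), so results for QC_LG rest on the least alike replicates. Array medians were alike, from 2.47 to 2.71 on the log2 scale, but their interquartile ranges lay between 1.03 and 2.1.

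Among the 7 genes, LOG4 varied most between groups and LOG3 least. The means of the 11 groups spanned 3.14 log2 units for LOG4, 2.68 for AHP6, 1.64 for TMO5, 1.49 for T5L1, 1.11 for LHW, 0.77 for WOL and 0.66 for LOG3. The span of LOG4 exceeded that of 98.2% of all loci and that of AHP6 96.4%, whereas WOL and LOG3 exceeded 20.5% and 11.1%. In limma's moderated F test of any difference among the groups, 1 of the 7 genes passed, LOG4 (adjusted p = 0.00804), against 9.56% of all loci. T5L1 lay just outside the threshold of 0.05 (adjusted p = 0.0516), and AHP6 (0.123), TMO5 (0.149), LHW (0.320), WOL (0.528) and LOG3 (0.675) did not pass. For each gene, the ranges of arrays overlapped between all neighbours in the order of the group means. For AHP6, the step of 1.45 below GSC_LG overlapped only through 1 array of ILT_16C, and for LOG4 the step of 1.69 from VSC_LG to GSC_LG exceeded the SD of either group.

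By group mean TMO5 was highest in the QC and vascular nuclei and lowest in the suspensor at 100 h, and EMB_EG lay just below SUS_EG. Its log2 level was 4.14, 4.24 and 3.18 on the QC_LG arrays, 3.76, 3.08, 3.60 and 4.10 in VSC_LG, and 3.85, 3.95, 3.76 and 2.45 in VSC_EG. It was 2.38, 1.72 and 2.54 in SUS_LG and 2.66, 2.91 and 2.28 in SUS_EG. Every QC_LG and VSC_LG array stood above every suspensor array of either stage. One VSC_EG array, replicate 4, lay among the suspensor values.

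The means of the remaining groups lay between those of VSC_EG and SUS_LG. TMO5 measured 3.95, 2.83, 3.59 and 3.15 in EMB_LG, 3.25, 2.37, 3.94 and 3.07 in GSC_EG, and 2.82, 2.64 and 3.25 in GSC_LG. At 72 h it measured 2.23, 3.29 and 3.11 in EMB_16C and 2.04, 2.64 and 3.59 in ILT_16C. EMB_EG was the most uneven group, at 2.47, 4.06, 1.79 and 2.08, with 1 array as high as any vascular array but that of VSC_LG replicate 4.

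By group mean the order of TMO5 ran from QC_LG (3.86 ± 0.585, SD, n = 3), VSC_LG (3.63 ± 0.426, n = 4), VSC_EG (3.50 ± 0.705, n = 4) and EMB_LG (3.38 ± 0.491, n = 4) down to SUS_EG (2.62 ± 0.315, n = 3), EMB_EG (2.60 ± 1.01, n = 4) and SUS_LG (2.21 ± 0.437, n = 3). The largest difference tested was that of VSC_LG over SUS_LG, 1.42 (SE 0.457, 95% interval 0.49 to 2.35), with no overlap of arrays but an adjusted p of 0.390. SUS_LG was also 1.17 below EMB_LG with no overlap (SE 0.457, adjusted p = 0.296). The 0.90 by which VSC_EG exceeded EMB_EG (95% interval 0.041 to 1.76) had an adjusted p of 0.301, and the arrays overlapped. TMO5 was thus called in none of the 22 comparisons made.

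The seed coat markers, genes of the flavonoid pathway in maternal tissue, were high in all groups. Their mean level ran from 4.52 in GSC_LG to 6.02 in SUS_LG, against array medians of 2.47 to 2.71. In SUS_LG 2 of the 6 were higher than in EMB_LG, in a comparison with 0.967% of loci called. The list's mean level was 5.59 to 6.40 on SUS_LG arrays, 4.60 to 5.19 in EMB_LG and 4.62 to 5.79 in VSC_LG. The part of these markers in the low TMO5 of SUS_LG was not tested. The suspensor markers WOX8 and WOX9 were 1.11 and 1.12 above the whole embryo in SUS_EG and 0.63 and 0.21 above it in SUS_LG, and neither was called. Their mean level was 2.51 to 3.31 in SUS_EG, 2.38 to 3.27 in VSC_EG and 1.74 to 2.25 in EMB_EG. These markers thus did not separate VSC_EG from the suspensor, which limits the results for VSC_EG.

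T5L1 shared with TMO5 its highest mean, in QC_LG, but not the rest of its order. Its log2 level was 3.72, 3.27 and 4.57 in QC_LG, 3.77, 2.92 and 3.84 in EMB_16C and 3.61, 3.92 and 2.86 in SUS_EG. In vascular nuclei it was 3.73, 2.86, 3.03 and 2.62 in VSC_EG and 2.25, 1.62, 3.27 and 2.30 in VSC_LG, the lowest mean of all groups. TMO5 and T5L1 therefore had unlike places for vascular nuclei at 100 h, second of 11 and last of 11 by mean.

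The other groups were close to each other for T5L1. The values were 2.74, 2.83, 3.08 and 2.44 in GSC_EG, 2.69, 2.99, 2.44 and 2.31 in EMB_EG, and 2.83, 1.92, 2.60 and 2.98 in EMB_LG. They were 2.83, 2.94 and 1.95 in ILT_16C, 2.99, 2.12 and 2.55 in SUS_LG, and 2.63, 1.89 and 2.88 in GSC_LG. All of these arrays lay below the lowest QC_LG array.

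In QC_LG T5L1 averaged 3.85 ± 0.662 (SD, n = 3) against 2.58 ± 0.471 in EMB_LG (n = 4), and no arrays overlapped. The difference of 1.27 (SE 0.381, 95% interval 0.49 to 2.04) did not pass (adjusted p = 0.0879). Against VSC_LG (2.36 ± 0.681, n = 4) it was 1.49 (SE 0.381, 95% interval 0.72 to 2.27), with an adjusted p of 0.204, and 1 VSC_LG array reached the lowest of QC_LG. The unadjusted p was smaller in this comparison than in the other, at 0.000422 against 0.00212, but only 0.0683% of loci were called in it, against 1.5% between QC_LG and EMB_LG. Lower T5L1 in ILT_16C than in EMB_16C, by 0.94, and higher T5L1 in SUS_EG than in EMB_EG, by 0.85, also did not pass (adjusted p = 0.403 and 0.567).

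LHW, the partner of both, was spread more evenly. Its group means ran from 3.67 ± 0.337 in GSC_LG (n = 3) and 3.56 ± 0.628 in GSC_EG (n = 4) through 3.37 ± 0.319 in VSC_LG and 3.32 ± 0.374 in VSC_EG to 2.62 ± 0.0574 in SUS_EG and 2.56 ± 0.555 in EMB_EG. Single arrays reached from 1.88 in EMB_EG to 4.79 in EMB_16C, where the 3 arrays measured 2.95, 4.79 and 2.46. LHW exceeded the array's median on all but 6 of the 38 arrays.

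For LHW the largest difference from the whole embryo was that of GSC_EG, 1.00 (SE 0.396, 95% interval 0.20 to 1.81, adjusted p = 0.269). The arrays were 3.14, 3.10, 3.57 and 4.45 in GSC_EG and 2.44, 1.88, 3.21 and 2.72 in EMB_EG, which overlapped. Vascular nuclei at 81 h, at 3.02, 3.54, 2.99 and 3.73, stood 0.76 above EMB_EG (adjusted p = 0.369). At 100 h the difference of vascular nuclei from the embryo was -0.16 (95% interval -0.96 to 0.65), with 3.65, 3.03, 3.64 and 3.17 in VSC_LG and 3.50, 3.50, 4.08 and 3.04 in EMB_LG.

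LOG4 was the one gene of the 7 with differences that passed the test, and all of them concerned vascular nuclei at 100 h. Its log2 level was 4.78, 3.09, 5.94 and 3.66 on the 4 arrays of VSC_LG. In vascular nuclei of the earlier stage it was 2.51, 1.28, 1.78 and 1.83, and in QC_LG it was 1.69, 1.77 and 0.93. Every VSC_LG array lay above all arrays of these groups and above its own array's median.

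Most other groups were low for LOG4, which lay below the array's median on 30 of 38 arrays. At 100 h it was 1.23, 1.30 and 1.18 in SUS_LG, 1.56, 4.04 and 2.42 in GSC_LG, and 1.72, 1.26, 3.81 and 1.20 in EMB_LG. At 81 h it was 1.19, 1.08, 2.59 and 1.10 in GSC_EG, 1.33, 2.82 and 1.34 in SUS_EG, and 1.37, 1.72, 2.32 and 2.13 in EMB_EG. Outside VSC_LG, the only arrays above its lowest value of 3.09 were GSC_LG replicate 2 and EMB_LG replicate 3. At 72 h the values were 1.02, 1.97 and 0.68 in ILT_16C and 1.51, 0.92 and 2.44 in EMB_16C.

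LOG4 averaged 4.37 ± 1.26 in VSC_LG (SD, n = 4) and 1.85 ± 0.504 in VSC_EG (n = 4), a rise of 2.52 between the stages (SE 0.558, 95% interval 1.38 to 3.65, adjusted p = 0.0184). Of all loci 1.1% were called in this comparison. VSC_LG also exceeded EMB_LG (2.00 ± 1.23, n = 4) by 2.37 (SE 0.558, 95% interval 1.24 to 3.51, adjusted p = 0.0319), against 0.787% of loci called, although EMB_LG replicate 3 overlapped the vascular arrays. QC_LG (1.46 ± 0.461, n = 3) lay below VSC_LG by a log2 difference of -2.90 (SE 0.603, 95% interval -4.13 to -1.68, adjusted p = 0.0468), in a comparison with 0.0683% of loci called. Each of these counts is 1 of the 7 genes.

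Against the suspensor and ground tissue of 100 h the LOG4 difference did not pass. VSC_LG exceeded SUS_LG (1.24 ± 0.0579, n = 3) by 3.13 (SE 0.603, 95% interval 1.91 to 4.36) with no overlap and an adjusted p of 0.0546, in a comparison where 0.0144% of loci were called. It exceeded GSC_LG (2.67 ± 1.25, n = 3) by 1.69 (SE 0.603, 95% interval 0.47 to 2.92, adjusted p = 0.142), and the arrays overlapped. At 81 h the LOG4 level of vascular nuclei differed from EMB_EG by -0.03 (95% interval -1.17 to 1.10) and from GSC_EG by 0.36 (95% interval -0.78 to 1.49). The change in the vascular difference from the embryo between the stages was 2.41 (SE 0.790, 95% interval 0.80 to 4.01), and its adjusted p was 0.419.

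The LOG4 calls held in 9 of 15 alternatives against EMB_LG, 11 of 15 against VSC_EG and 6 of 14 for QC_LG minus VSC_LG. The call against EMB_LG was lost without VSC_LG replicate 1 or 3 or EMB_LG replicate 1, 2 or 4, and that against VSC_EG without VSC_LG replicate 3 or VSC_EG replicate 2 or 3. The QC_LG call was lost without VSC_LG replicate 1 or 3 or any QC_LG array, with arrays centred on the median and with array weights, and all 3 were lost with only the groups compared. Without the highest array, VSC_LG replicate 3, the difference was 1.85 from EMB_LG (adjusted p = 0.169), 1.99 from VSC_EG (0.0960) and -2.38 for QC_LG minus VSC_LG (0.272). Over all loci, VSC_LG replicate 3 had a mean correlation of 0.766 with the other arrays of the group, in a group range of 0.764 to 0.790. A value over all loci cannot show whether a single dim locus is out of place on that array. The vascular marker list on VSC_LG arrays overlapped that of EMB_LG, as given above, and the ground tissue list was 2.40 to 2.93 in VSC_LG against 2.81 to 3.44 in EMB_LG. The protoderm list was 4.65 to 5.71 in VSC_LG against 5.73 to 6.92 in EMB_LG, without overlap, and 4.32 to 5.09 in VSC_EG, and none of its 3 genes was called in either comparison. Their part in the LOG4 differences was not tested.

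**Figure D1:**
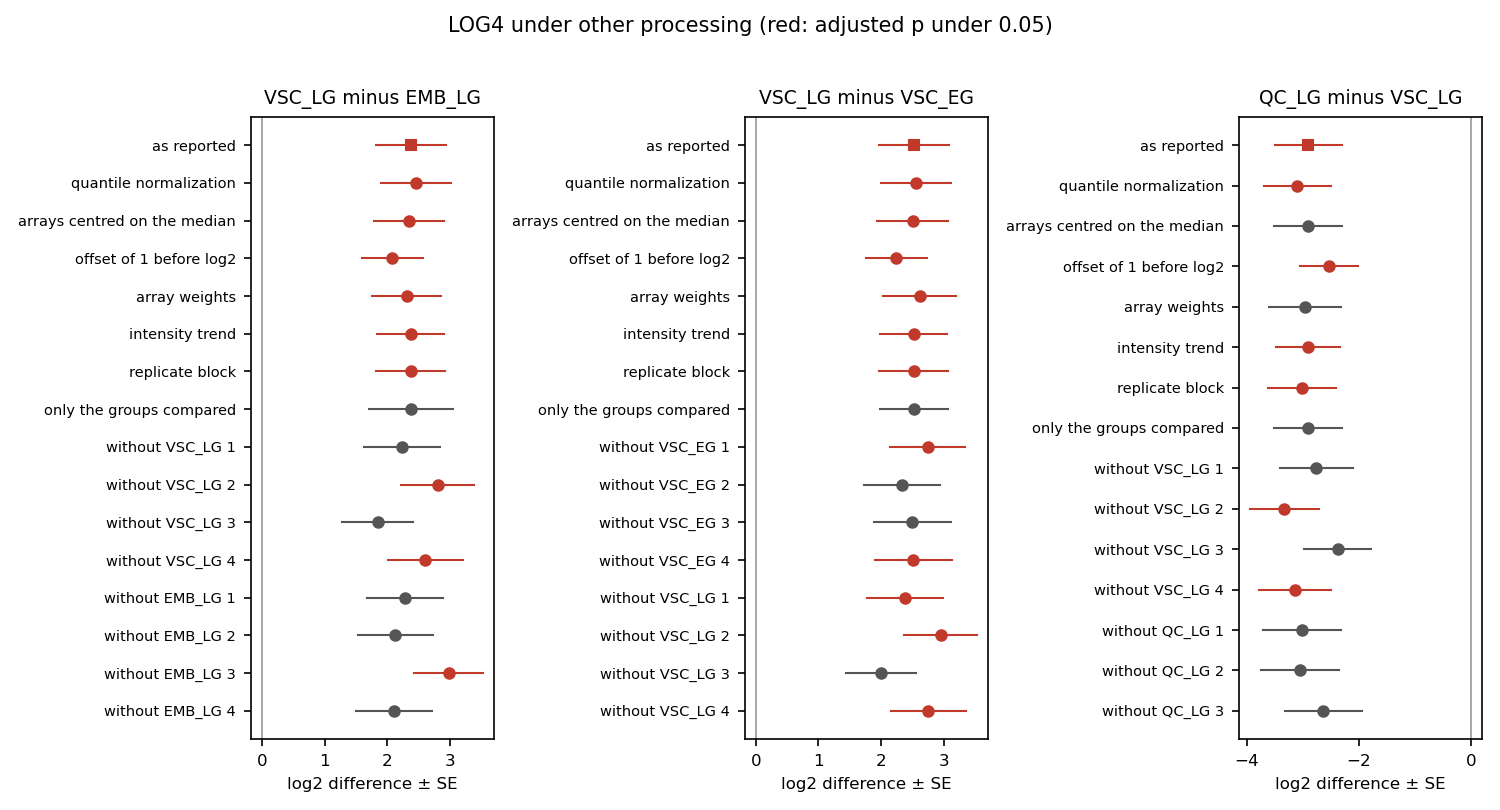
Log2 difference of LOG4 ± SE in the 3 comparisons where it passed, as reported (square) and under other processing or without single arrays (circles); red marks an adjusted p under 0.05. The sign held in every row; the call was lost in all 3 comparisons without VSC_LG replicate 3 and when the fit held only the groups compared.

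LOG3, the other enzyme gene that TMO5 and LHW activate, was called in none of the comparisons. Its group means stayed between 1.64 ± 0.628 in SUS_EG (n = 3) and 2.29 ± 0.729 in VSC_EG (n = 4), and it lay below the array's median on 33 of 38 arrays. In vascular nuclei it measured 2.64, 3.05, 1.36 and 2.12 at 81 h and 1.71, 1.67, 1.76 and 2.00 at 100 h, where LOG4 was high. The highest array of all was that at 3.05 in VSC_EG and the lowest that at 1.26 in SUS_EG.

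LOG3 in VSC_EG stood 0.65 above GSC_EG (SE 0.326, 95% interval -0.01 to 1.32, adjusted p = 0.369), with GSC_EG arrays at 1.44, 1.65, 1.92 and 1.56. In VSC_LG it differed from EMB_LG by -0.30 (95% interval -0.96 to 0.36). Both enzyme genes were thus near the lower end of the measured range: the mean level of LOG3 exceeded that of 18.7% of loci and that of LOG4 20.4%.

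AHP6 was highest in ground tissue nuclei at 100 h. Its log2 level there was 4.40, 5.07 and 4.00. In vascular nuclei of the same stage it was 2.71, 1.79, 2.59 and 2.56, and in EMB_LG 3.33, 3.18, 2.49 and 2.95. No array of VSC_LG or EMB_LG reached those of GSC_LG.

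Outside GSC_LG, AHP6 was above 4.00 on 1 array, that of ILT_16C replicate 2, at 5.96; the other inner lower tier arrays measured 1.22 and 1.94. The other 100 h groups measured 2.81, 2.67 and 3.04 in SUS_LG and 2.22, 2.52 and 3.86 in QC_LG. At 81 h AHP6 was 1.43, 2.61, 1.52 and 1.67 in VSC_EG, 2.43, 1.81, 2.83 and 2.08 in GSC_EG, 1.78, 2.39 and 2.72 in SUS_EG, and 2.16, 2.26, 2.19 and 1.79 in EMB_EG. EMB_16C measured 3.87, 2.29 and 1.97. No 81 h array reached 3.

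AHP6 averaged 4.49 ± 0.539 in GSC_LG (SD, n = 3) and 2.41 ± 0.421 in VSC_LG (n = 4), a difference of -2.08 for VSC_LG minus GSC_LG (SE 0.616, 95% interval -3.33 to -0.83). It did not pass (adjusted p = 0.0755), in a comparison with 1.24% of loci called. GSC_LG exceeded EMB_LG (2.99 ± 0.365, n = 4) by 1.50 (SE 0.616, 95% interval 0.25 to 2.76, adjusted p = 0.300, against 0.449% of loci called). A comparison added after the values were seen, GSC_LG against GSC_EG (2.29 ± 0.441, n = 4), gave 2.20 (SE 0.616, 95% interval 0.95 to 3.45, adjusted p = 0.0591, against 1.47% of loci called). In each of these comparisons the arrays did not overlap.

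These p-values share a spread that includes ILT_16C replicate 2. Without that array, an alternative also added after the values were seen, AHP6 was called in VSC_LG against GSC_LG (adjusted p = 0.00916) and in GSC_LG against GSC_EG (0.00251), with the same differences, and was not called in GSC_LG against EMB_LG (0.0848). ILT_16C is in none of these comparisons, so leaving its array out changed only the spread and not the differences. That array was chosen after its AHP6 value was seen, so these calls are no further evidence for the differences. Marker lists of several cell types were also high in GSC_LG. Of the 4 ground tissue markers, 2 were called higher in GSC_LG than in GSC_EG (1.47% of loci called). In VSC_LG 1 was called lower than in GSC_LG (1.24% of loci called). Of the 3 markers of the protoderm, the outer layer, 1 was called higher in GSC_LG than in GSC_EG. The vascular list (mean 4.49) and the quiescent centre list (3.54) also had their highest group mean in GSC_LG, with 0 genes called against GSC_EG. The endosperm and seed coat lists had their lowest there. The protoderm list averaged 6.07 to 6.79 in GSC_LG and 4.65 to 5.71 in VSC_LG, and the interquartile range of the whole array was 1.51 to 2.06 in GSC_LG and 1.16 to 1.41 in VSC_LG. Their part in the AHP6 difference was not tested.

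WOL, the receptor, differed little between group means, and it lay below the array's median on 19 of 38 arrays. Its group means ran from 3.06 ± 0.519 in EMB_LG (n = 4), 3.01 ± 0.524 in QC_LG (n = 3) and 2.96 ± 0.484 in GSC_LG (n = 3) to 2.33 ± 0.164 in ILT_16C (n = 3) and 2.29 ± 0.642 in SUS_EG (n = 3). Vascular nuclei lay in the middle, at 2.52, 3.22, 2.60 and 2.49 in VSC_EG and 2.43, 2.62, 2.64 and 2.58 in VSC_LG. The lowest array, at 1.58, was in SUS_EG and the highest, at 3.82, in EMB_LG.

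The vascular difference of WOL from the whole embryo was 0.36 at 81 h (95% interval -0.35 to 1.06) and -0.49 at 100 h (95% interval -1.20 to 0.21), and neither passed. Every VSC_LG array lay below every EMB_LG array, which with 4 arrays per group can arise by chance. Its largest step was in the whole embryo itself, 0.71 higher in EMB_LG than in EMB_EG (SE 0.347, 95% interval 0.0017 to 1.41, adjusted p = 0.601). EMB_EG measured 2.00, 2.01, 2.59 and 2.80 and EMB_LG 2.96, 2.73, 2.72 and 3.82, which overlapped. LHW showed a step of 0.97 in the same comparison (adjusted p = 0.464), in which 0.111% of loci were called.

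**Figure D2:**
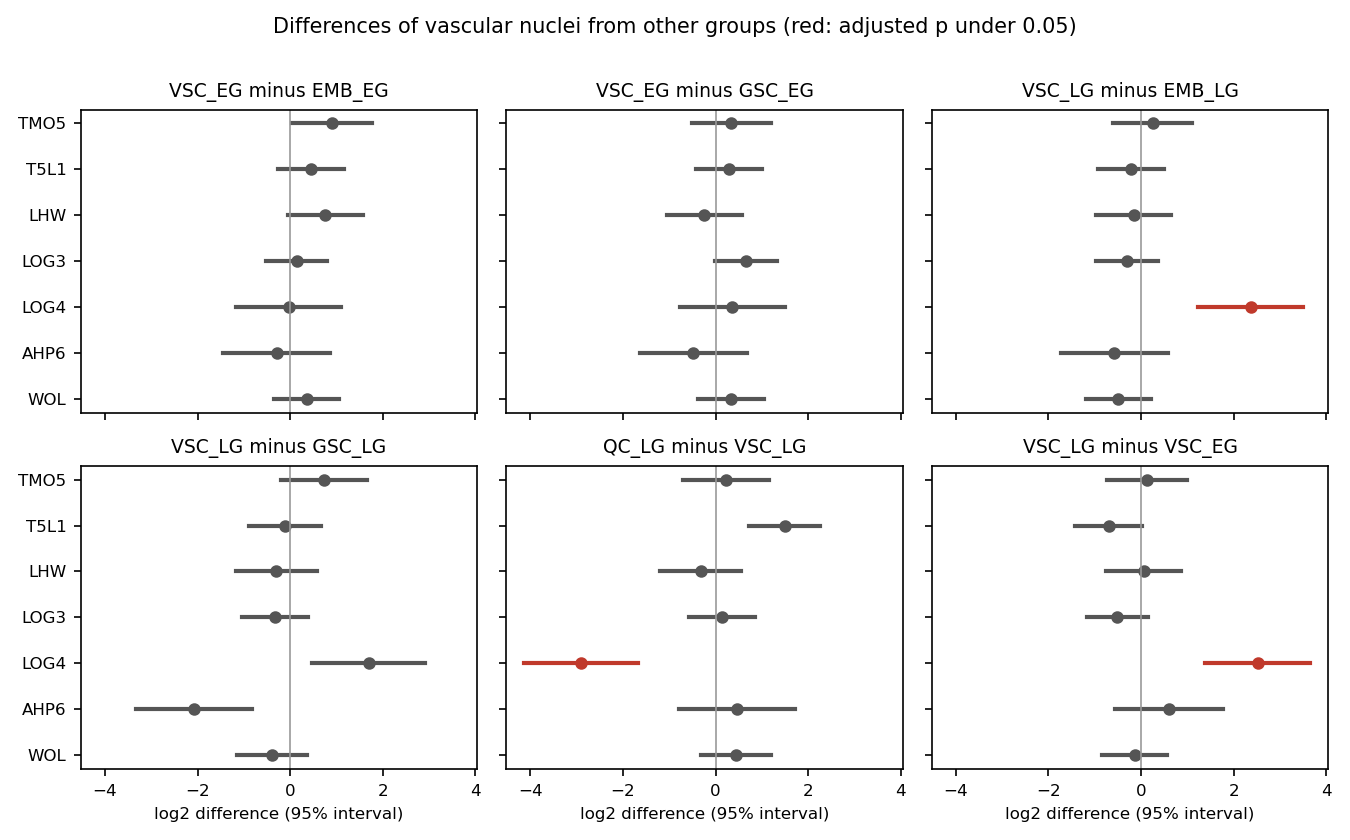
Log2 difference with its 95% interval (horizontal axis) for the 7 genes in 6 comparisons of vascular nuclei; red marks an adjusted p under 0.05. LOG4 is marked in 3 of them, at 2.37, -2.90 and 2.52, and AHP6 lies at -2.08 in VSC_LG minus GSC_LG without passing.

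In the other comparisons of cell types, 0 of the 7 genes were called by limma. At 81 h this held for VSC_EG against EMB_EG (2.15% of loci called, 1 of the 7 at an unadjusted p under 0.05), GSC_EG against EMB_EG (1.12%, 1 gene), SUS_EG against EMB_EG (0.198%, 1 gene), VSC_EG against GSC_EG (0.74%, 0 genes) and VSC_EG against SUS_EG (0.0575%, 0 genes). At 72 h it held for ILT_16C against EMB_16C (0.449%, 1 gene). At 100 h it held for GSC_LG (0.449%, 1 gene), SUS_LG (0.967%, 1 gene) and QC_LG (1.5%, 1 gene) against EMB_LG, for VSC_LG against GSC_LG (1.24%, 2 genes) and for VSC_LG against SUS_LG (0.0144%, 2 genes). With backgrounds at or below 2.15%, fewer than 1 of 7 genes would be called at the rate of all loci.

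Between stages, LOG4 alone was called, in vascular nuclei. None of the 7 was called in VSC_EG against ILT_16C (0.41% of loci called, 0 of the 7 at an unadjusted p under 0.05), EMB_EG against EMB_16C (0.187%, 1 gene), EMB_LG against EMB_EG (0.111%, 2 genes), GSC_LG against GSC_EG (1.47%, 1 gene) or SUS_LG against SUS_EG (0.359%, 1 gene), of which the last 2 were added after the values were seen. Between 81 h and 100 h, a change in the difference of vascular nuclei from the embryo was called for 0% of loci. Thus 0 of the 7 were called, and 1, LOG4, had an unadjusted p under 0.05. For ground tissue 0% of loci and for the suspensor 0.00719% were called, again with 0 of the 7 genes, and 0 at an unadjusted p under 0.05. These comparisons share groups, so they are not independent of each other.

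Of the other genes of the pathway, 68 in 8 lists, 5 were called by the same test, each in 1 comparison. A call of 1 of 68 genes is near the share of all loci called, which was 2.15% in VSC_EG against EMB_EG, 0.449% in ILT_16C against EMB_16C, 0.74% in VSC_EG against GSC_EG, 1.47% in GSC_LG against GSC_EG and 0.359% in SUS_LG against SUS_EG. At 81 h LOG1 (AT2G28305), an enzyme of the LOG3 and LOG4 family, was higher in vascular nuclei than in the embryo. It measured 3.49, 4.17, 3.91 and 3.58 in VSC_EG and 2.96, 2.12, 2.12 and 2.18 in EMB_EG, a difference of 1.45 (SE 0.352, adjusted p = 0.0235) with no overlap. Ground tissue nuclei of that stage were nearly as high for LOG1, at 3.19, 4.11, 4.09 and 2.91 in GSC_EG, which overlapped VSC_EG. The high level was therefore not particular to vascular nuclei. At 100 h LOG1 was 2.97, 2.56, 2.81 and 1.97 in VSC_LG, below all VSC_EG arrays, a difference of -1.21 from VSC_EG that did not pass (adjusted p = 0.0858), while LOG4 stood above all of its own VSC_EG arrays. Leaving out VSC_EG replicate 2 or 3, or EMB_EG replicate 2 or 3, ended the LOG1 call, with adjusted p from 0.0676 to 0.102.

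Of the 7 other LOG genes, 6 were above 0 in VSC_EG minus EMB_EG, with a median of 0.45 against -0.01 over all loci, and 1 was called. At 100 h, 3 of 7 were above 0 in VSC_LG minus EMB_LG, with a median of -0.02, and 0 were called. The 7 other cytokinin receptors and phosphotransfer proteins, which pass the signal from receptor to response regulator, were all above 0 in VSC_EG minus EMB_EG, from 0.10 for AHK2 to 1.13 for AHP2, with a median of 0.81 and 0 called. In VSC_LG minus EMB_LG 4 of these 7 were above 0, with a median of 0.06 and 0 called. Whether either list differs from other loci was not tested.

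AHP3 (AT5G39340), a phosphotransfer protein, was higher in the inner lower tier at 72 h. It measured 3.91, 6.36 and 2.81 in ILT_16C and 1.67, 1.53 and 1.55 in EMB_16C, a difference of 2.78 (SE 0.540, adjusted p = 0.0147) with no overlap. The highest value came from ILT_16C replicate 2, the array that was also highest for AHP6, and without it the difference was 1.78 (adjusted p = 0.0979). The call was also lost when the fit held only these groups (adjusted p = 0.297). The inhibitor AHP6 and the transmitter AHP3 thus had their highest value of all 38 arrays on the same array.

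TMO7 (AT1G74500), a small helix-loop-helix protein and another target of MP, was lower in vascular than in ground tissue nuclei at 81 h. It measured 2.91, 2.48, 3.06 and 2.46 in VSC_EG and 5.91, 3.86, 3.66 and 4.95 in GSC_EG, a log2 difference of -1.87 (SE 0.439, adjusted p = 0.0361) with no overlap. The call was lost under quantile normalization (adjusted p = 0.0973), with only the groups compared (0.221) and without VSC_EG replicate 2 or 3 or GSC_EG replicate 1 or 4 (adjusted p from 0.0695 to 0.158). In the comparisons added after the values were seen, BGLU44 (AT3G18080), a beta-glucosidase, fell by 1.96 from GSC_EG to GSC_LG (adjusted p = 0.0298). The locus AT5G09460 fell by 1.99 from SUS_EG to SUS_LG (adjusted p = 0.0390). The call of AT5G09460 held in 4 of 14 alternatives: it was lost without any array of SUS_EG or SUS_LG, with arrays centred on the median (adjusted p = 0.0559), an intensity trend (0.0652), the replicate block (0.0532) and only the groups compared (0.0856). That of BGLU44 held in 10 of 16 and was lost under quantile normalization (0.0707) and without GSC_EG replicate 2 or 4 or any GSC_LG array.

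The response regulators, which read out the cytokinin signal, were not called in any comparison. The 10 type-A regulators, many of which cytokinin induces, had a median of -0.01 in VSC_EG minus EMB_EG and 0.02 in VSC_LG minus EMB_LG, with 5 of 10 above 0 in each. In GSC_LG, 0 of the 10 were above EMB_LG, with a median of -0.32 against -0.10 over all loci and 0 called. In the same comparison 2 of the 7 other LOG genes and 2 of the 7 other receptors and phosphotransfer proteins were above 0. Of the 14 other factors and targets of vascular initiation, 10 were above 0. Array interquartile ranges were 1.51 to 2.06 in GSC_LG and 1.24 to 1.42 in EMB_LG. Neither their part nor that of AHP6 in the type-A levels was tested. The 7 type-B regulators, the factors that carry the response, had a median of -0.39 in VSC_EG minus EMB_EG and -0.13 in VSC_LG minus EMB_LG. The 11 genes of cytokinin synthesis before the LOG step had medians of -0.18 and 0.03, and the 7 cytokinin oxidases, which break cytokinin down, 0.21 and 0.33.

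The 5 other helix-loop-helix genes of the TMO5 and LHW clades had medians of 0.04 in VSC_EG minus EMB_EG and 0.13 in VSC_LG minus EMB_LG, and 0 were called in any comparison. The 14 other factors and targets of vascular initiation had medians of 0.15 and 0.06 in these comparisons. In each list and both comparisons the spread of single genes reached to both sides of 0 except for the receptors and phosphotransfer proteins at 81 h.

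**Figure D3:**
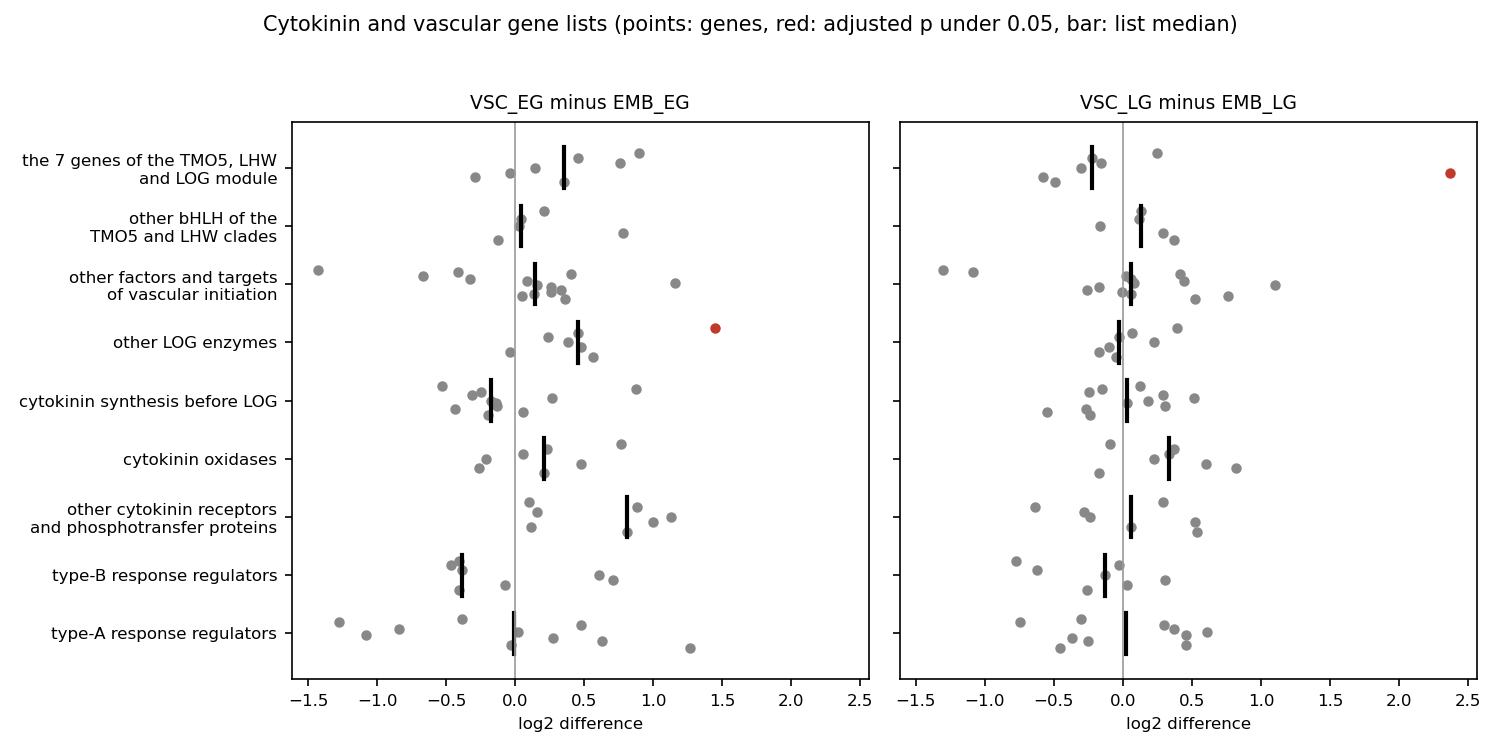
Log2 difference of vascular from whole-embryo nuclei (horizontal axis) at 81 h (left) and 100 h (right) for the 7 genes and the 68 genes of the pathway lists (rows); points are genes, bars list medians, and red marks an adjusted p under 0.05. LOG1 is the red point at 81 h (1.45) and LOG4 that at 100 h (2.37).

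The profiles of the 7 genes over the 11 group means had little in common, as a description of points that share arrays and processing. Pearson's r between pairs of them ran from -0.40 for T5L1 and LOG4 to 0.52 for AHP6 and WOL. It was 0.45 for the partners TMO5 and LHW, -0.27 for T5L1 and LHW, 0.25 for TMO5 and T5L1, 0.40 for TMO5 and LOG4, and -0.11 for LOG3 and LOG4. Over the 38 arrays the highest was 0.31, for AHP6 and WOL.

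The genes of most similar profile were sought among loci with a symbol and a mean level above the median locus, by r over the 11 group means. Taking the highest r of many loci over 11 points selects for high values, also for genes that differ little between groups, such as LOG3. Whether any of these genes is regulated together with its match was not tested. For LOG4 they were BEH3 (AT4G18890, r = 0.82), HSL1 (AT4G32010, 0.81) and IRX6 (AT5G15630, 0.81). For AHP6 they were NF-YA5 (AT1G54160, 0.96), MCM3 (AT5G46280, 0.92) and PRP39 (AT1G04080, 0.91). For TMO5 they were MPK15 (AT1G73670, 0.93), GAUT14 (AT5G15470, 0.91) and STIPL1 (AT1G17070, 0.84), and for T5L1 they were NPQ1 (AT1G08550, 0.80), TUB9 (AT4G20890, 0.75) and ATG13 (AT3G49590, 0.75).

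LHW was most like RAD50 (AT2G31970, 0.91), WAVE5 (AT4G18600, 0.88) and FKBP53 (AT4G25340, 0.84). LOG3 was most like CIP4.1 (AT4G00930, 0.86), PFD1 (AT2G07340, 0.84) and TPR9 (AT1G33400, 0.82), and WOL was most like AIL6 (AT5G10510, 0.88), PCNA1 (AT1G07370, 0.86) and AGO6 (AT2G32940, 0.84). None of the 7 genes was among the 3 most similar to another, but LOG3 and LOG4 lie below the median locus and could not be listed. Over the 38 arrays the same pairs had r from 0.088 to 0.65, lower than over the means in each case.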

How the data were processed

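The deposited values are intensity values on a linear scale, 1 per locus and array for 27826 loci. The authors computed them with RMA, per the submitters' processing notes; no version or probe set definition is given in the sources used here. RMA corrects background, normalizes between arrays and summarises probes, so a difference in the total RNA of nuclei is lost. RNA from nuclei was amplified and labelled with biotin, per the labels' protocols. Of the deposited columns, 0 belonged to no sample. Locus identifiers were matched to the RefSeq TAIR10.1 gene table for 27241 loci, 10556 with a symbol. No sequences or coordinates are given.

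Values were taken to log2 without a constant and compared with limma (version 3.58.1, R 4.3.3) in 1 fit of 11 group means over 38 arrays, with 27 residual degrees of freedom. The tests were 19 comparisons of 2 groups, 3 stage differences and an F test, two-sided, with p-values adjusted by Benjamini-Hochberg over all loci and called under 0.05. The number of arrays per group, 3 or 4, limits the precision. With so few arrays, groups can lie apart by chance, so absence of overlap is a description and not a test. The share of all loci without overlap is not given here. Nothing in the labels names a batch. No pair of arrays was a duplicate (highest r 0.896).

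The 7 genes, the lists and the tests were chosen with earlier results of these data known. A gene of these lists is not reported here and was left out of them after the tests had been run, for a reason unrelated to its values. Named besides the 7 were list genes called in a comparison, at most 3 each, and the 3 most similar profiles. GSC_LG against GSC_EG and SUS_LG against SUS_EG were added after the values were seen. Alternatives were quantile normalization, centring arrays on the median, leaving out loci below the 25th percentile of mean level, an offset of 1, array weights, an intensity trend, the replicate number as a block, only the groups compared, and leaving out each array. The code was tested on simulated data. Plots used matplotlib 3.10.9 (Python 3.11.15).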

Additional observations from a re-analysis of the deposited data

Results flagged for a closer look

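In groups of 4 arrays, a gene's highest or lowest array was set against the rest by Dixon's test at the 95% level, which chance passes in about 1 of 20 groups. Of 35 groups tested over the 7 genes, 4 held such an array. TMO5 measured 2.45 in VSC_EG replicate 4, where the other arrays measured at least 3.76. LOG4 measured 2.59 in GSC_EG replicate 3, where the next highest was 1.19. AHP6 measured 1.79 in VSC_LG replicate 2, below the next at 2.56. WOL measured 3.22 in VSC_EG replicate 2, above the next at 2.60. These are 4 different arrays.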

How the results depend on the processing

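Of 154 results for a gene in a comparison, the 3 called ones, all LOG4, kept their sign under every alternative that gave a value. Of the 151 others, 148 were called under none and 3 under some: LOG4 in VSC_LG against SUS_LG and AHP6 in VSC_LG against GSC_LG and GSC_LG against GSC_EG. The count for VSC_LG against EMB_LG went from 1 to 0 without dim genes, a filter that removes LOG3 and LOG4 from the test, and with only the groups compared (LOG4 adjusted p = 0.160). That for VSC_LG against VSC_EG went from 1 to 0 under the same alternatives (0.0797). That for QC_LG against VSC_LG went from 1 to 0 under these (0.701), with arrays centred on the median (0.0550) and with array weights (0.0730). Leaving out 1 array gave from 0 to 1 in each of these comparisons. The calls were lost without VSC_LG replicate 1 or 3 or EMB_LG replicate 1, 2 or 4 in VSC_LG against EMB_LG, without VSC_EG replicate 2 or 3 or VSC_LG replicate 3 in VSC_LG against VSC_EG, and without VSC_LG replicate 1 or 3 or any QC_LG array in QC_LG against VSC_LG. Some counts rose from 0 to 1: VSC_LG against GSC_LG with array weights, only the groups compared and without ILT_16C replicate 2 (leaving out 1 array gave from 0 to 1); VSC_LG against SUS_LG with quantile normalization, the offset of 1, array weights and the intensity trend (0 to 1 without 1 array); and GSC_LG against GSC_EG without dim genes, with array weights and with only the groups compared (0 to 1 without 1 array). In the F test the count of 1 became 2 with the offset of 1 and 3 with array weights, and ranged from 1 to 3 without 1 array; LOG4 was called in 43 of 44 alternatives (adjusted p from 0.0024 to 0.0588, lost without VSC_LG replicate 3), T5L1 in 11 of 45, AHP6 in 3 of 45 (array weights, without ILT_16C replicate 1 or 2) and TMO5 in 1 of 45 (without EMB_EG replicate 2).

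Arrays of 1 number did not pair: their deviations from the group means correlated at 0.00567 on average, against -0.00205 for other arrays. With the replicate block LOG4 remained called in the same 3 comparisons, as did the count of 1 in the F test. Over all loci the count called in VSC_EG against EMB_EG, 599, ran from 210 to 2010 over the alternatives, and that in QC_LG against VSC_LG, 19, from 1 to 49. The cause of these shifts was not tested. LOG3 and LOG4 are dim, at 18.7% and 20.4% of loci by mean level, and no detection calls were used here.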
